A study of Mus musculus with 6 samples.

Results

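A set of 5 genes of transcriptional co-activation was followed in LβT2 cells given activin A or vehicle: the Cited genes Cited1, Cited2 and Cited4, and the paired acetyltransferase genes Crebbp, which encodes CBP, and Ep300, which encodes p300. The members were all probe sets that the platform annotation assigns to these 5 genes alone, 10 of 45101 on the array. The genes were chosen by their signals, their activin over vehicle ratios and the lower Cited4 signal at later times on the vehicle arrays, so all values of these genes below are descriptions and carry no test. Of the 10 probe sets, 7 passed a filter on low signal, and these represent 4 of the 5 genes, out of 11406 genes past the filter; Cited1 did not pass.

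CBP and p300 are large, closely related nuclear proteins that acetylate histones and transcription factors and bridge DNA-bound factors to the transcription machinery. Smad proteins, which carry the signal of activin and other TGF-beta family ligands to the nucleus, recruit CBP and p300 at their target genes. Cited proteins bind no DNA themselves: a conserved acidic carboxy-terminal region docks onto the first cysteine-histidine-rich domain of CBP and p300, through which Cited2 competes with the hypoxia factor HIF-1-alpha and co-activates AP-2 and other factors. In mouse, Cited2 is needed for heart, adrenal and neural tube development.

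LβT2 is an immortalised mouse pituitary line of gonadotrope type, in which activin stimulates follicle-stimulating hormone synthesis. The cells were kept for 16 h in medium lacking serum and phenol red and were then given recombinant human activin A at 30 ng/ml (3 arrays, 1 each at 1, 2 and 6 h) or its buffer, the vehicle (3 arrays at the same times). Each array held RNA of 1 culture of 1 cell line, so a difference between 2 arrays has no replicate check, and precision is limited by how few arrays there are. In RNA from whole cultures, a change in the number of cells with a transcript and a change in RNA per cell cannot be told apart.

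In assembly GRCm38.p6 of RefSeq, Cited1 spans chrX:102247378-102252181, Cited2 chr10:17723228-17725674, Cited4 chr4:120666563-120667820, Crebbp chr16:4081334-4213957 and Ep300 chr15:81586209-81652077. The starts of Cited2 and Cited4 are shown because these are the 2 Cited genes with a probe set past the filter and their activin over vehicle ratios had opposite signs. Both sequences are RefSeq windows of that assembly, GRCm38.p6, from 250 bases before to 50 bases after the annotated start, read 5′ to 3′ on the plus strand, at chr10:17722978-17723277 for Cited2 and chr4:120666313-120666612 for Cited4. Capitals mark matches, on either strand, to TATAAA (the core of the TATA box), CCAAT (a promoter box), CAGAC (a Smad-binding element), ACGTG (the core of a HIF element) or TGACG (part of a cyclic AMP response element).
Cited2: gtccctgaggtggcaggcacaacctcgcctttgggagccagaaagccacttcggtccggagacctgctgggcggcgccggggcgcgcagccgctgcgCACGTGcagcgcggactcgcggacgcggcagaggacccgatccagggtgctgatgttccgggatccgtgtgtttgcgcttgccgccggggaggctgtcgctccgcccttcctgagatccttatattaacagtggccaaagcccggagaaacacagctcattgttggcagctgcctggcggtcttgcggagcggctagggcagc
Cited4: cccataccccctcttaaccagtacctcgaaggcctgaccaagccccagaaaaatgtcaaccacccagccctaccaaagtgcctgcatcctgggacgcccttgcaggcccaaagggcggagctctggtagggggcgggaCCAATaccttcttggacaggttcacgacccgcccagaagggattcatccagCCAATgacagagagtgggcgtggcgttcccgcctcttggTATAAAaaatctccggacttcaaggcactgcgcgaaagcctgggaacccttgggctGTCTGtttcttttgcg
In the Cited2 window the HIF core has a match on each strand. These matches overlap and together form the palindrome CACGTG, while the other 4 motifs have no match. In the Cited4 window the TATA box core starts at position −22 and the CCAAT motif at positions −112 and −61, and the Smad element lies in reverse complement from position 35, counted with the annotated start as 1 and no position 0. Of 32851 such windows in the table, 13.6% held the TATA box core, 37.4% the CCAAT motif, 49.6% the Smad element, 19.6% the HIF core and 20.8% the cyclic AMP motif on either strand. The windows of the CBP/p300 genes were richer in G and C. The share was 82% for Crebbp, with none of the 5 motifs, and 72.3% for Ep300, with 1 Smad element. It was 66.7% for Cited2 and 58% for Cited4, with a median of 52.7% over all windows. The 3 windows of Cited1 had 59.7%, 59.7% and 64.7%. The Crebbp window, chr16:4213355-4213654 on the minus strand, lay inside the gene span given above and did not include its 5′ end at 4213957. The motif matches describe letters, not binding.

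The arrays had been scaled to 1 trimmed mean, and their median signals lay between 151 and 166.4. The labelled cell type was checked against markers: 10 of 12 gonadotrope markers passed the filter, with Cga, the common alpha subunit gene, between 12802.4 and 16715.3 with activin and between 11888.7 and 13900.2 with vehicle, while Fshb stayed at 78.4 or less. Of 10 markers of other pituitary cells 4 passed, and of 12 markers of fibroblasts, endothelium and blood cells 6 passed. Signals were summed over all listed markers with a probe set, including those that did not pass. The sums for other pituitary cells were 2387.5 to 2685.1 with activin and 2298 to 2437.3 with vehicle. Those for fibroblasts, endothelium and blood cells were 3422.4 to 4182.4 with activin and 3310.2 to 3748.2 with vehicle. Sox2 was at 6.2 or less and Prl at 78.5 or less, but Drd2 lay between 779.1 and 993.1, Tshb between 399.5 and 520.8 and the endothelial gene Cdh5 between 959.1 and 1111. Pecam1, another endothelial gene, read 700.7, 952.3 and 1081.3 with activin at 1, 2 and 6 h, against 527.3, 576 and 530.5 with vehicle. At 6 h Pomc was at 315 on the activin array, against 159.3 on the vehicle array. The 5′ control probe set for 18S ribosomal RNA was at 12201.8 for activin at 1 h, and on the other 5 arrays it was at 1171.1 or less. Ratios of the 3′ over the 5′ control lay between 0.787 and 0.836 for Gapdh and between 1.14 and 1.27 for beta-actin. A part of these markers, or of the 18S control, in the values of the 5 genes was not tested.

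**Figure D1:**
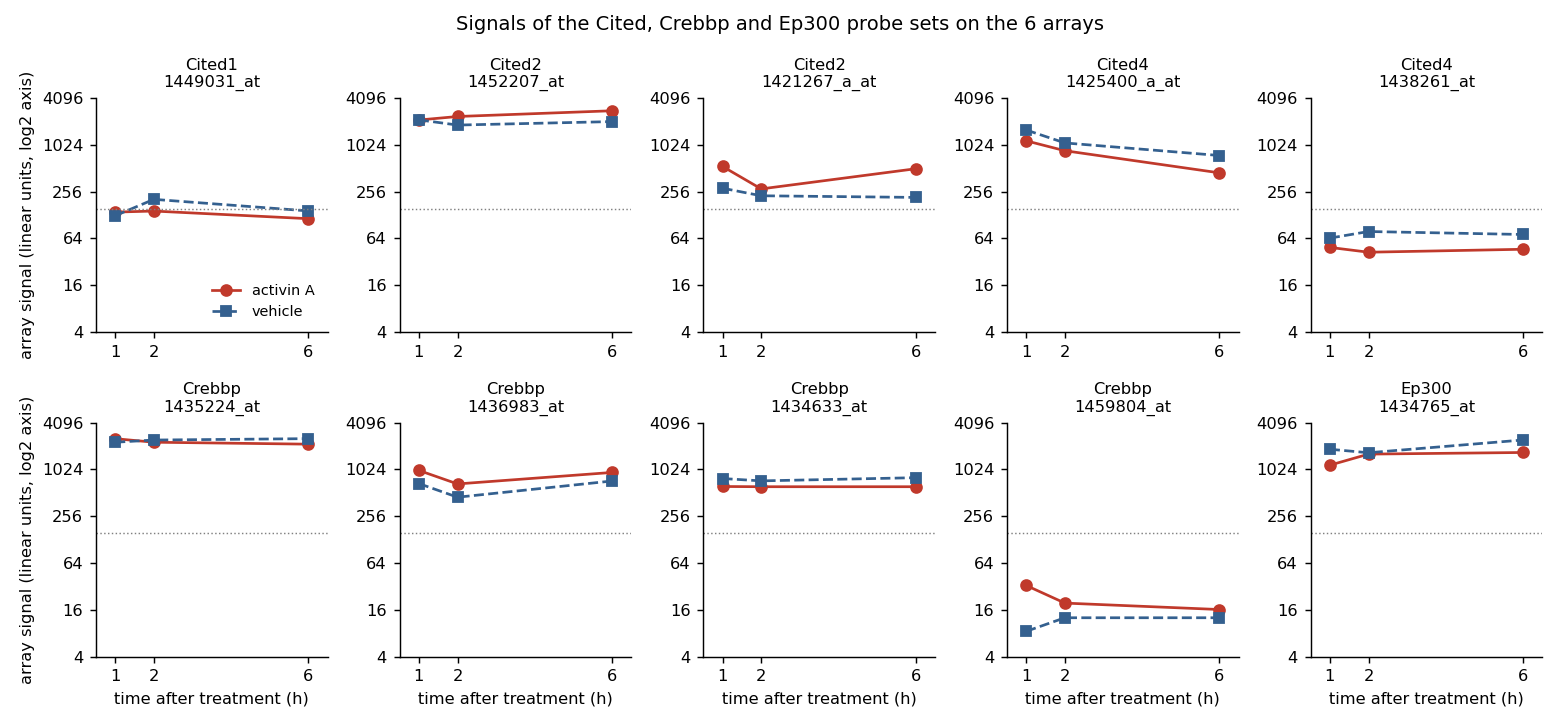
Signal of each of the 10 probe sets (linear array units on a log2 axis) against time in hours, with activin A as red circles and vehicle as blue squares, 1 array per point, and the filter value of 155.3 as a dotted line. Cited4 (1425400_a_at) is lower at each later time in both treatments, Cited2 (1421267_a_at) is above vehicle at all 3 times, 2 probe sets (Cited4 1438261_at and Crebbp 1459804_at) lie below the filter line throughout, and Cited1 lies below it on 5 of 6 arrays.

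Cited2, the inhibitor of HIF-1-alpha access to CBP/p300, read higher with activin at 2 and 6 h on both of its probe sets. Its brighter probe set, 1452207_at, read 2131.3, 2364.6 and 2802.3 with activin at 1, 2 and 6 h, against 2141, 1834.9 and 2033.8 with vehicle. The pair at 1 h was level, and the groups overlapped only through it, since the activin signal at 1 h lay under the vehicle signal of that hour. The log2 ratios of activin over vehicle were −0.01, 0.37 and 0.46, with a mean of 0.27 ± 0.25 (SD of the 3 ratios), and the folds at 2 and 6 h were 1.29 and 1.38. On the activin arrays the signal was higher at each later time (1.31-fold at 6 h over 1 h), while on the vehicle arrays the 6 h signal was 0.95 of the 1 h signal.

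The dimmer probe set, 1421267_a_at, whose suffix marks probes shared by several transcripts of a gene, read 539.2, 277.4 and 504 with activin at 1, 2 and 6 h, against 283.2, 226.4 and 215.7 with vehicle. Activin was above vehicle at each time, but the activin signal of 2 h lay below the vehicle signal of 1 h, so the groups overlapped. Its log2 ratios were 0.93, 0.29 and 1.22, with folds of 1.9, 1.23 and 2.34 and a mean of 0.82 ± 0.48 (SD of the 3 ratios). The 2 probe sets therefore differed in their ratios by 1.91-fold, 1.05-fold and 1.7-fold at 1, 2 and 6 h. Such disagreement was common on these arrays: of 4990 genes with several probe sets past the filter, 21.3%, 16.2% and 16.8% had ratios at least 1.5-fold apart at 1, 2 and 6 h. With the median of its probe sets, the mean log2 ratio of Cited2 was 0.54, against 0.27 on the brighter probe set alone.

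The authors' deposited table of genes past 1.2-fold at all 3 times lists Cited2 at folds of 1.22, 1.36 and 1.71 at 1, 2 and 6 h. The deposited signals of the probe set of the same target sequence, 1421267_a_at, gave 1.9, 1.23 and 2.34 for the same times. The fold in the authors' deposited table lay between the ratios of both probe sets at 1 and 6 h and above both at 2 h, so it is the direction, not the size, that these sources share. At 1 h that direction was given by 1421267_a_at alone.

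Cited4, a co-activator of AP-2 factors, read lower with activin at all 3 times and lower at each later time in both treatments on its probe set past the filter. That probe set, 1425400_a_at, read 1150.9, 858.8 and 446.1 with activin at 1, 2 and 6 h, against 1585.4, 1081.4 and 745.3 with vehicle. Because the signal moved with time, the groups overlapped across times, but within each time the activin array was the lower one. The log2 ratios were −0.46, −0.33 and −0.74, so the vehicle signal was 1.38-fold, 1.26-fold and 1.67-fold the activin signal, and the mean was −0.51 ± 0.21 (SD of the 3 ratios). Over all 11406 genes, 1.21% were at least 1.2-fold lower at all 3 times, as Cited4 was, and 1.24% were at least 1.2-fold higher; the ratio had helped to choose the gene, and nothing is read from that share.

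The second Cited4 probe set, 1438261_at, lay far below the filter. It read 49.1, 42.6 and 46.5 with activin and 64.7, 78.6 and 72 with vehicle at 1, 2 and 6 h. These signals are too dim for a fold or a direction, so Cited4 rests on 1 probe set.

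The lower Cited4 signal at later times without activin was among the reasons for its choice. On vehicle arrays its log2 ratio was −0.55 for 2 h over 1 h, −0.54 for 6 h over 2 h and −1.09 for 6 h over 1 h, and 26 of the 11406 genes were lower still. On activin arrays it was −0.42, −0.94 and −1.37, and the 1 h signal was 2.58-fold the 6 h signal, against 2.13-fold with vehicle. At least 1.5-fold lower signals at 6 h over 1 h were found for 3.73% of genes on activin arrays, for 1.96% on vehicle arrays and for 0.307% on both; at least 1.5-fold higher ones were found for 5.09% and 2.15%. The other 3 measured members differed by less than 1.5-fold between 6 h and 1 h in either treatment: the log2 ratio was 0.39 with activin and −0.07 with vehicle for Cited2, −0.23 and 0.15 for Crebbp, and 0.54 and 0.40 for Ep300. With 1 array per time, none of these differences has a test.

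**Figure D2:**
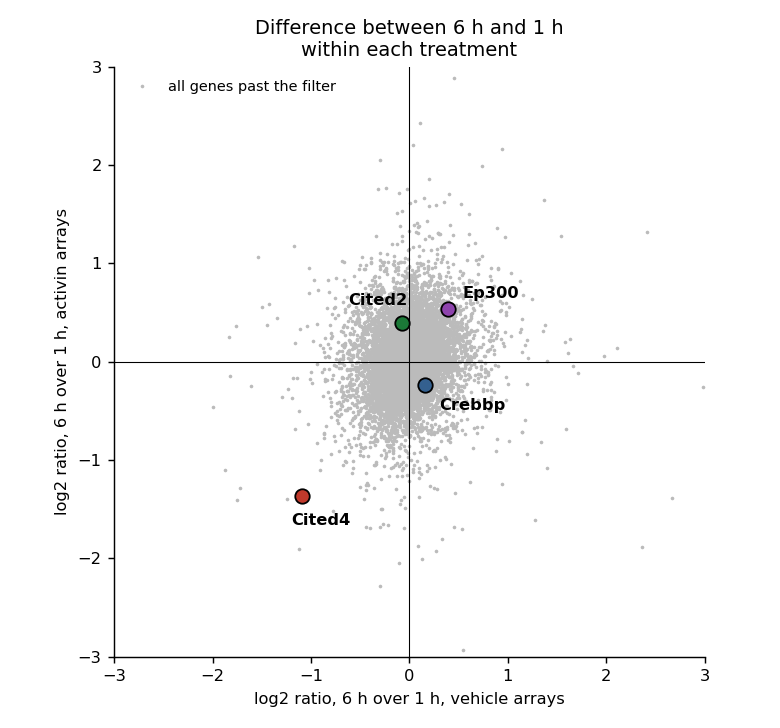
Log2 ratio of the 6 h over the 1 h signal on activin arrays (vertical) against vehicle arrays (horizontal) for genes past the filter (grey) and the 4 measured members (coloured), 1 array per time and treatment; 1 gene lies outside the axes. Cited4, at −1.37 with activin and −1.09 with vehicle, sits in the lower left, apart from Cited2, Crebbp and Ep300.

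Cited1, the first described Cited gene and a Smad4-binding co-activator, was near the limit of measurement. Its single probe set, 1449031_at, read 139.7, 144 and 114.9 with activin at 1, 2 and 6 h, against 125.6, 203.7 and 144.5 with vehicle. The vehicle signal of 2 h was the single one above the filter value of 155.3, and the groups overlapped. No fold is drawn from these signals.

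Ep300, the p300 acetyltransferase gene, read lower with activin at 1 and 6 h and level at 2 h. Its single probe set, 1434765_at, read 1161.6, 1611 and 1689.8 with activin at 1, 2 and 6 h, against 1859.6, 1677.3 and 2448 with vehicle. The activin signal of 1 h was the lowest of the 6 and the vehicle signal of 6 h the highest, while the other 4 lay between 1611 and 1859.6 and overlapped. The log2 ratios were −0.68, −0.06 and −0.53, with a mean of −0.42 ± 0.32 (SD of the 3 ratios), and the vehicle signal was 1.6-fold, 1.04-fold and 1.45-fold the activin signal. After median centring of the arrays the 2 h ratio became 0.03. The 1 h value, like the 1 h ratios of all other members and listed genes, includes the activin array whose 18S control was at 12201.8. Without the 1 h arrays the Ep300 mean was −0.30.

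Crebbp, the CBP gene, gave 3 answers on its 3 probe sets past the filter. The brightest, 1435224_at, read 2541.7, 2289.4 and 2161.7 with activin at 1, 2 and 6 h, against 2289.3, 2443.3 and 2546.1 with vehicle, log2 ratios of 0.15, −0.09 and −0.24. All 6 signals lay within 1.18-fold of each other, and the mean ratio was −0.06 ± 0.20 (SD of the 3 ratios). The second, 1436983_at, read 993.7, 666.3 and 936.4 with activin, against 673.5, 449.8 and 726.9 with vehicle. Activin was the higher array at each time, by 1.48-fold, 1.48-fold and 1.29-fold, with a mean log2 ratio of 0.50 ± 0.11, although the groups overlapped because both 2 h arrays were the lowest of their treatment. The third, 1434633_at, read 617.7, 613.5 and 613.6 with activin, against 782.1, 729.5 and 801.8 with vehicle. Here the groups did not overlap and activin was the lower one, with a mean log2 ratio of −0.33 ± 0.07 and the smallest SD among the 7 probe sets past the filter. Over all probe sets past the filter, 8.14% had all 3 activin signals below all 3 vehicle signals and 6.3% had all 3 above.

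The spread between the Crebbp probe sets was 1.87-fold, 1.76-fold and 1.68-fold at 1, 2 and 6 h, more than any 1 of their own ratios, so the files give no single direction for this gene. The remaining probe set, 1459804_at, read 33, 19.6 and 16.2 with activin and 8.5, 12.7 and 12.7 with vehicle, all too dim for a fold. The authors' deposited table of the 1 h comparison lists Crebbp at a fold of 1.8 under gene expression and NF-kappaB signalling. None of the 3 probe sets past the filter gave that size at 1 h; the nearest was 1436983_at at 1.48.

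**Figure D3:**
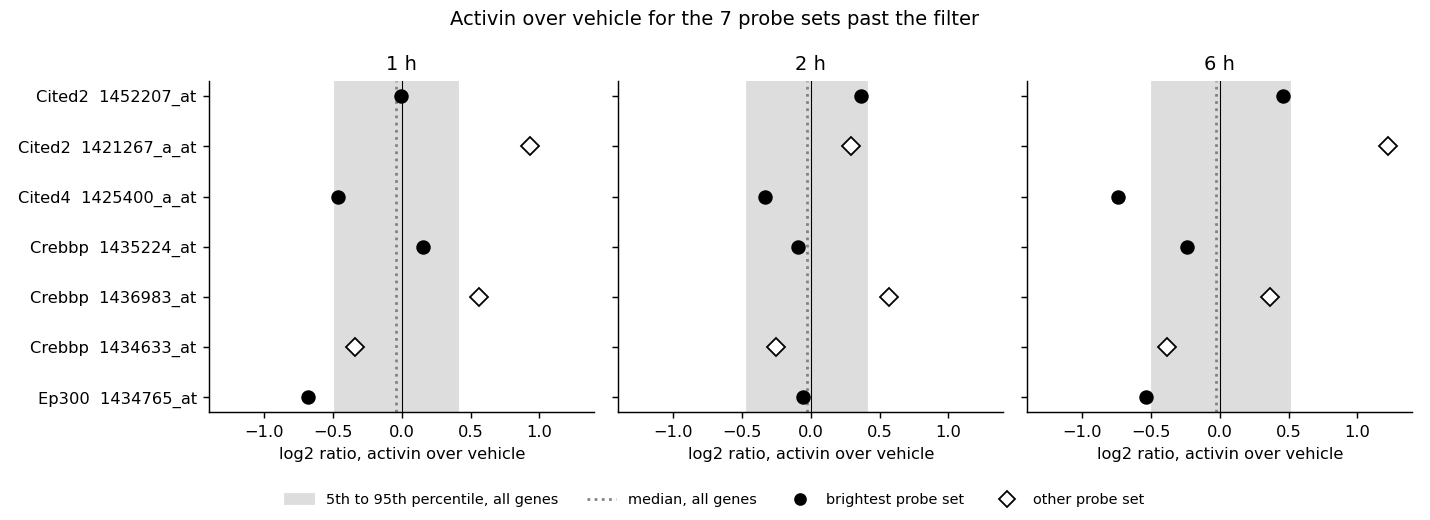
Log2 ratio of activin over vehicle at 1, 2 and 6 h for the 7 probe sets past the filter (filled circles, brightest of the gene; open diamonds, others), with the 5th to 95th percentile of all 11406 genes shaded and their median dotted; each point is 1 pair of arrays. Cited2 lies at or right of 0 and Cited4 left of 0 in each panel, while the 3 Crebbp probe sets spread to both sides.

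Counted by the brightest probe set at 1.5-fold, 1 of the 4 measured genes (Ep300) was lower at 1 h and none was higher, none passed in either direction at 2 h, and 1 (Cited4) was lower at 6 h and none was higher. Over all genes, 2.31%, 2.67% and 3.7% were at least 1.5-fold higher at 1, 2 and 6 h, and 2.91%, 2.8% and 3.16% were at least 1.5-fold lower. Higher genes made up 44.3%, 48.9% and 54.0% of those past 1.5-fold at 1, 2 and 6 h, and after median centring of the arrays 32.6%, 65.5% and 45.3%. By probe sets, Cited2 (1421267_a_at) was at least 1.5-fold higher at 1 and 6 h, where 3.94% and 4.05% of 19606 probe sets were. The choice of members used these ratios, and nothing is read from the counts.

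The genes whose 6 log2 signals, each centred on its own mean, lay nearest to a member by root mean square difference were found for the 3 members whose signals spanned at least 1.5-fold. For Cited2 these were the activin and BMP type I receptor gene Acvr1 (a difference of 0.04), Ccdc180 (0.04) and 0610010F05Rik (0.05). Acvr1 read 1061.5, 1281.9 and 1442.1 with activin and 1091, 992.6 and 1062.9 with vehicle. For Ep300 they were Leng9 (0.07), the orphan receptor gene Gpr161 (0.08) and the phosphatase gene Pdxp (0.10). For Cited4 none lay as near: the differences were 0.22 for Nfic, a nuclear factor I gene, 0.23 for Srl, which encodes sarcalumenin, and 0.24 for Cdc42ep5. Nfic read 1098, 811.4 and 461.5 with activin and 1093.5, 883.2 and 805.7 with vehicle, so it shared the low 6 h activin signal but was level at 1 h. These differences are not scaled to the span of a gene, and the Cited4 signals spanned 3.55-fold. Among the members, each on its brightest probe set, Cited2 and Cited4 differed by 0.72 and Crebbp and Ep300 by 0.33. The nearest pair was Cited2 and Crebbp at 0.26. The Crebbp signals spanned 1.18-fold on that probe set, and the dimmer probe sets of either gene were not compared.

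The partners of CBP/p300 and of the Cited proteins were read from 9 lists and tested with limma as the time-averaged effect of activin over 11406 genes. The lists were chosen with earlier results of these data known, so nothing is read from their counts. The 3 times stand in for replicates in the limma test. Its p-values set the mean ratio against the gene's spread between times, moderated by the spread pooled over all genes. They do not measure the spread between replicate cultures. No gene, 0% of those tested, passed at an adjusted p of 0.05 (smallest adjusted p 0.305); 1195 genes, 10.5%, had an unadjusted p under 0.05 (474 or 4.16% higher, 721 or 6.32% lower), and limma with a trended, robust prior called 9 genes, of which Cdkn2b is on the lists. The median of the mean log2 ratios over all genes was −0.04.

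The Smads, which bring CBP and p300 to activin targets, had 6 of 8 genes measured, none past the test, 2 higher at an unadjusted p under 0.05, and a median of 0.07. The inhibitory Smad genes Smad6 and Smad7 had mean log2 ratios of 1.15 and 0.85, while the receptor-regulated Smad3 and Smad2 had −0.19 and −0.03. The Smad3 ratios were 0.06, −0.03 and −0.61 at 1, 2 and 6 h, and without the 6 h arrays its mean was 0.01. The list of CREB factors, the partners for which CBP is named, and their CRTC co-activators also held Fos, Per1 and Pde4d, which are neither. It had 9 of 12 genes measured, none past the test, 1 (Fos) higher at an unadjusted p under 0.05. The median of −0.16 is of this mixed list. Fos, a CREB target, had a mean log2 ratio of 0.63, and its signals were 695.8, 477.7 and 337 with activin against 337.7, 339.4 and 265 with vehicle. Crtc1, which tethers CBP to CREB, had −0.44 and read 372.2, 583.1 and 491.9 with activin against 668.5, 578 and 683.5 with vehicle. The clock gene Per1 had −0.24 and the phosphodiesterase gene Pde4d 0.09.

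The HIF factors, among them the competitor of Cited2, and their regulators had 7 of 10 measured, none past the test or at an unadjusted p under 0.05, and a median of −0.12. The means were 0.14 for Hif3a, whose vehicle signal at 2 h lay under the filter value and whose mean was −0.03 without the 2 h arrays, 0.12 for Vhl, the recognition subunit of the ligase that degrades HIF, −0.15 for the prolyl hydroxylase gene Egln1 and −0.13 for the asparaginyl hydroxylase gene Hif1an. Of 22 HIF target genes 16 were measured, none past the test, 2 higher and 1 lower at an unadjusted p under 0.05, with a median of 0.02. The histone demethylase gene Kdm3a had 0.31 and the mTORC1 inhibitor gene Ddit4 0.28, against −0.32 for Ankrd37 and −0.32 for the hexokinase gene Hk2, which had 0.20 at 1 h and −0.60 at 6 h. Of the AP-2 factors, co-activated by Cited2 and Cited4, 1 was measured: Tfap2a at −0.17. Tfap4, a helix-loop-helix gene entered in the same list by its symbol although it is no AP-2 factor, had 0.07, and −0.05 without the 1 h arrays.

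The other co-activators and acetyltransferases had 17 of 18 measured, none past the test, 1 higher at an unadjusted p under 0.05, and a median of −0.04. Med1, a Mediator subunit, had 0.49 and the acetyltransferase gene Elp3 0.16, against −0.19 for the nuclear receptor co-activator gene Ncoa6 and −0.19 for its p160 counterpart Ncoa3. With the median of their probe sets Med1 had 0.07 and Elp3 −0.12. The histone deacetylases and co-repressors had 14 of 18 measured, none past the test, 3 lower at an unadjusted p under 0.05, and a median of −0.03. Hdac4 had −0.40 and read 464.4, 526.6 and 504 with activin against 655.2, 615.9 and 705.2 with vehicle, with no overlap. Over all genes, 9.71% had all 3 activin signals below all 3 vehicle signals. With the median of its probe sets Hdac4 had −0.25. Hdac10 had −0.35, Hdac7 0.06 and the sirtuin gene Sirt6 0.24.

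LIM homeodomain factors and their cofactor Ldb1, a family of which Lhx2 is a described Cited2 partner, had 6 of 8 measured, none past the test, 2 higher at an unadjusted p under 0.05, and a median of 0.09. Lhx3, a pituitary lineage factor, had 0.59 and Lhx2 0.30, while Ldb1 had −0.17 and Lmo4 −0.10. The Lhx2 ratio was −0.21 at 1 h, and its mean became 0.55 when the 1 h arrays were left out and 0.14 when those of 2 h were. Lmo4 had 0.02 without the 2 h arrays. The Polycomb, Ink4 and Myc genes, some of which lie downstream of Cited2 in mouse fibroblasts, had all 12 measured, none past the test, 2 higher and 1 lower at an unadjusted p under 0.05, and a median of 0.05. The G1 inhibitor genes Cdkn2b and Cdkn2c had 0.91 and −0.08, and Mycn and Myc had 0.75 and −0.89. The medians of all 9 lists lay between −0.16 and 0.09.

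**Figure D4:**
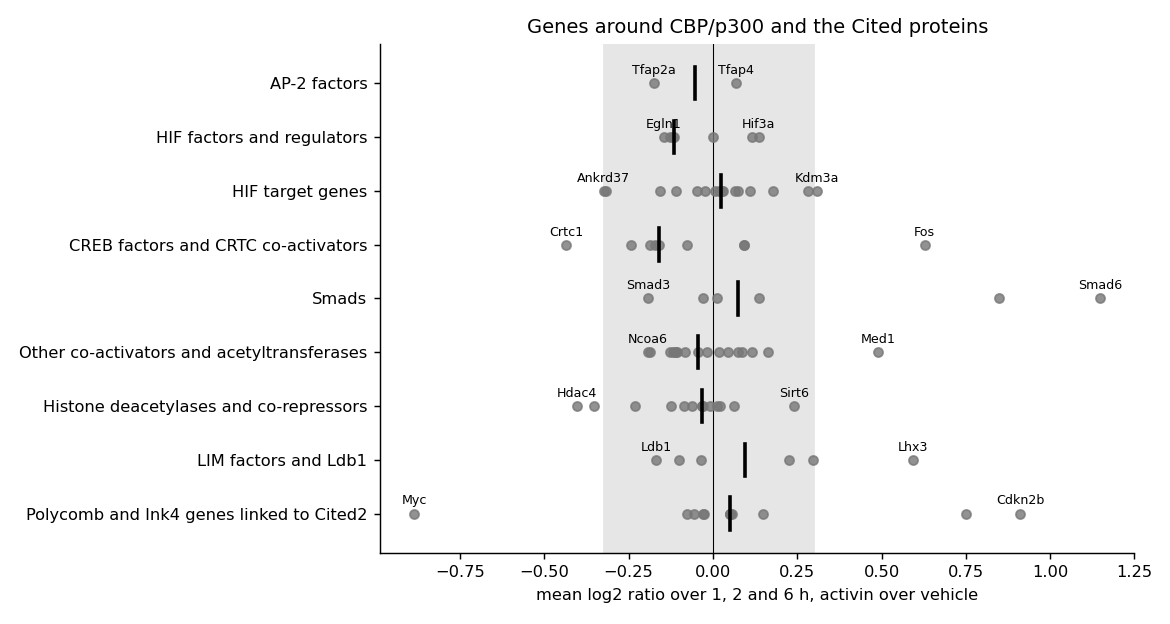
Mean log2 ratio of activin over vehicle over the 3 times for each measured gene of the 9 lists (points), with each list's median as a bar and the 5th to 95th percentile of all 11406 genes (−0.32 to 0.30) shaded; the lowest and highest gene of each list are named. Most genes lie inside the shaded range, and Myc, Cdkn2b, Mycn, Smad6, Smad7, Fos and Lhx3 lie farthest from it.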

How the data were processed

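RNA of 6 LβT2 cultures, 1 per treatment and time, was hybridised to 1 mouse genome array each; treatment and time were taken from the labels. Linear intensity values, 1 per probe set and array, were deposited by the authors; GCOS 1.4 is named in the submitters' processing notes, without settings or detection calls. The authors also deposited lists of selected genes with signed folds (unit score: lower with activin carries a minus sign), per the file headers. All 5 workbooks held the same 5 sheets.

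Of 45101 probe sets, 34945 have 1 gene in the platform annotation; gene symbols were brought up to date by Entrez identifier from RefSeq's GRCm38.p6 table. Signals were taken to log2 with a pseudocount of 0, kept where their 6-array mean lay above the overall probe set median (7.28, or 155.3 unlogged), and the brightest probe set stood for its gene. The time-averaged effect of activin was fitted with limma 3.58.1 in R 4.3.3 with time as a block (degrees of freedom: 2 residual, 3.06 prior); p-values are two-sided and Benjamini-Hochberg adjusted. The fit was tried on simulated data. Figures used matplotlib 3.10.9 in Python 3.11.15. Members and lists were chosen with earlier results of these data known. Named were all members, the 2 highest and 2 lowest mean ratios of each list, the 3 genes nearest to each member that spanned 1.5-fold, and markers. Alternatives were quantile normalization, median centring over all probe sets, a pseudocount of 50, the median of probe sets, signals raised to the filter value, other filters, no block, a trended robust prior, leaving out each time, and 2-fold.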

Additional observations from a re-analysis of the deposited data

Results flagged for a closer look

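The sirtuin gene Sirt6, a deacetylase, had log2 ratios of activin over vehicle of 0.50 at 1 h and 0.51 at 2 h but −0.28 at 6 h, each past 1.2-fold and in opposite directions. It read 338.5, 391.3 and 206.8 with activin at 1, 2 and 6 h, against 239.7, 275.3 and 251.9 with vehicle. The difference between times was not tested.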

How the results depend on the processing

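Of 132 values of the 4 measured members recomputed under the alternatives, 127 moved by less than the SD of the gene's 3 ratios, 5 moved by more and none past 1.5-fold changed sign. The 5 all came from the median of probe sets, which gave a mean log2 ratio of 0.54 for Cited2 and 0.15 for Crebbp. Part of the 127 could not have moved. Leaving out 1 of 3 times always shifts a mean by less than the SD. Every member signal used lay above the filter value, so raising signals to it changed nothing. Cited4 and Ep300 had 1 probe set past the filter, so the median of probe sets repeated their main values. The count of 127 is therefore no measure of stability. Cited4 kept a negative mean in all 8 alternatives (−0.60 to −0.40), as did Ep300 (−0.61 to −0.30), and Cited2 a positive one (0.41 without the 1 h arrays and 0.18 without those of 6 h). Crebbp had 0.03 without the 6 h arrays. The limma test passed 3 genes with a filter at the 70th percentile and 9 with the trended robust prior. The numbers of genes 1.5-fold apart were 596, 624 and 782 for activin over vehicle at 1, 2 and 6 h, 1007 for 6 h over 1 h with activin and 469 with vehicle. In that order they were 3294, 3524, 3710, 3824 and 3215 with no filter, 213, 217, 315, 480 and 121 with a filter at the 70th percentile, which tests fewer genes, and 113, 128, 168, 190 and 71 at 2-fold; the 469 became 296 with a pseudocount of 50. Dim signals limit Cited1 and the weakest Cited4 and Crebbp probe sets, and the lack of replicates limits every single time.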

Other observations

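The signed folds in the authors' deposited table were set beside ratios of the deposited signals wherever a listed target sequence matched 1 probe set, 27 probe sets with 81 folds in all. Of these, 79 had the same direction, 41 lay within 0.2 on the log2 scale, and the median absolute difference was 0.17. For Cited2 the log2 ratio of the signals minus that of the fold in the authors' deposited table was 0.64 at 1 h, −0.15 at 2 h and 0.45 at 6 h, a larger difference than the median at 1 and 6 h.

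The probe sets 1434633_at and 1436983_at of Crebbp had opposite mean log2 ratios, −0.33 and 0.50, in the same 6 RNA preparations. On vehicle arrays 1436983_at also read 1.62-fold higher at 6 h than at 2 h, while 1434633_at read 1.1-fold higher.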
